A study of Mus musculus with 9 samples.

Results

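Invariant natural killer T (iNKT) cells, T cells of the thymus with a semi-invariant receptor for lipids shown by CD1d, were profiled here for 9 genes that encode transcription factors of the iNKT and T lineages: *Zbtb16* (PLZF), *Zbtb7b* (ThPOK), *Bcl11b*, *Tox*, *Satb1*, *Ikzf2* (Helios), *Ikzf3* (Aiolos), *Bach2* and *Maf* (c-Maf). The genes were chosen by name as lineage factors, and they are 9 of the 21883 genes of the expression table. The 9 RNA-seq libraries fall into 3 groups of 3, namely WT cells at stage 2, WT cells at stage 3 and *Med23*-deficient cells at stage 2, all from C57BL/6 thymus. WT mice were 6 weeks old, and the labels give no age for the deficient mice. The deficient libraries were numbered apart from the WT libraries, and the labels name no batch. A batch difference could thus not be told apart from genotype. *Med23*, a subunit of the Mediator complex, was deleted with Cd4-Cre on a floxed *Med23* allele, which acts from the double-positive (DP) thymocyte stage and so in all cells that descend from DP thymocytes, not in iNKT cells alone. Stages were sorted on surface CD44 and NK1.1, with NK1.1 absent at stage 2 and present at stage 3. The sources do not say whether WT mice carried Cre or the floxed allele, nor whether mice were pooled, so p-values measure the spread between these libraries. Apart from WT stage 3 replicate 2, which was of the other sex (below), that spread may be technical.

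PLZF is a zinc finger protein with a BTB domain that gives developing iNKT cells their effector program, and its level is known to differ between the iNKT1, iNKT2 and iNKT17 subsets. ThPOK, of the same BTB-zinc finger family, drives CD4 lineage choice and restrains CD8 lineage genes and, in iNKT cells, the iNKT17 program. Bcl11b holds T cell identity, Tox and Satb1 act in thymocyte selection and chromatin organisation, Helios and Aiolos belong to the Ikaros family, Bach2 restrains effector genes, and c-Maf takes part in cytokine programs.

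Upstream sequence is shown for the members whose start-site windows hold none of their own exons, as the DNA next to the genes described below. RefSeq windows on GRCm38.p6 were matched by symbol for 4 of the 9 members (*Zbtb7b*, *Bach2*, *Bcl11b* and *Satb1*), with 9 windows in all, of which 3 had no base in an exon of the gene itself in GENCODE vM21. Each line gives the 250 bases before a start site, 5′ to 3′ on the gene's own strand, and capitals mark a match, on either strand, to one of the short motifs searched. The *Zbtb7b* window lies at chr3:89387672-89387921 on the minus strand, before a start inside the gene. The *Bach2* window lies at chr4:32417185-32417434 on the plus strand, also before a start inside the gene, and the *Satb1* window at chr17:51833291-51833540 on the minus strand, before its outermost start and within *Gm6934*, a gene model on the opposite strand.
Zbtb7b: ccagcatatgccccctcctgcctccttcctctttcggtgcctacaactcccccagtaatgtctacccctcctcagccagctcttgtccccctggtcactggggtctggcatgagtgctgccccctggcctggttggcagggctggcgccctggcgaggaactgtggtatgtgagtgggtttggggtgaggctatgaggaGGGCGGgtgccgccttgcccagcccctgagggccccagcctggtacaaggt
Bach2: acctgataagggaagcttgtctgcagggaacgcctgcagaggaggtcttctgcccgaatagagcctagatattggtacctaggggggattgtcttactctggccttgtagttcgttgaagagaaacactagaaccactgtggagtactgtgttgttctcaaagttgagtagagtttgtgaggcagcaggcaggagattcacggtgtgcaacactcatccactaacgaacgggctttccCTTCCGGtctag
Satb1: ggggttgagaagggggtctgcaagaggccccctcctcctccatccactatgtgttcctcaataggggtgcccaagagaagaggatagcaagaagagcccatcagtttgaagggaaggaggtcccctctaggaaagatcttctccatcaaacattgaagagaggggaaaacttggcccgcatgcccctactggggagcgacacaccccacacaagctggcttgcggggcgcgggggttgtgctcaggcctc
The motifs were CCGGAAG (ETS factors, one of which, ELK1, is a known partner of MED23), GCGTGGG (EGR factors), TGANTCA (AP-1), TGTGGTT (Runx factors) and GGGCGG (the GC box). The *Bach2* window held 1 ETS match, the *Zbtb7b* window 1 GC box, and the *Satb1* window none. Among all 32851 RefSeq windows of the same length, 6.91% held the ETS letters and 32.7% the GC box. A GC box match is thus common and an ETS match less so, and these matches are descriptions of the letters only.

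Expression was given as FPKM, fragments scaled for transcript length and library size, so that levels of different genes can be set side by side. Between 15584 and 17333 genes lay above 0 per library, and the number of reads behind each value is unknown. A single small RNA gene model, *Gm23935*, took 62.2% to 71.9% of the summed FPKM. The markers of iNKT cells were present in all 9 libraries, with *Trav11*, *Traj18* and *Cd3e* among them. *Med23* FPKM was 5.51, 5.15 and 6.74 in WT stage 2, 7.14, 4.44 and 6.12 in WT stage 3, and 4.80, 3.60 and 3.92 in the deficient libraries. The deficient libraries lay below all WT stage 2 libraries and overlapped those of WT stage 3, and the difference from WT stage 2 did not pass the test (log2 fold change -0.41, SE 0.18, limma adjusted p = 0.552), so the gene-level value is only a weak check of the labels. WT stage 3 replicate 2 stood apart from the other 8 libraries, with *Xist* at 47.45 FPKM against at most 0.01 and 4 of 4 Y-linked genes at 0. In the other 8 those Y-linked genes were at 2.94 to 16.59, so this library was of female cells and the others of male cells. Values without this library are given for *Zbtb16*, *Zbtb7b*, *Ikzf3*, the ratio of *Zbtb16* to *Zbtb7b* and genes of the lists. Of the 9 members only *Zbtb16* was called without it, between the WT stages and in deficient stage 2 against WT stage 3. Without this library 41 in place of 346 genes were called between the WT stages, and 76 in place of 278 between deficient stage 2 and WT stage 3. Leaving out any other library of a comparison also lowered these counts, so the drop is not particular to this library.

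Differences were tested with limma on log2(FPKM + 1), and "rose" and "fell" are kept for an adjusted p (Benjamini-Hochberg, over all genes) no greater than 0.05. A second threshold, that of the study, was a fold change of at least 2 with an unadjusted p of at most 0.05. The added 1 shrinks the log2 fold changes of genes with low FPKM. In bulk RNA, fewer cells of a subset and less RNA per cell cannot be told apart.

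*Zbtb16* had the highest FPKM of the 9 genes in WT stage 2 cells. It is encoded on chromosome 9 (48654297 to 48836222, mm10, minus strand; ENSMUSG00000066687). Its FPKM was 112.43, 87.96 and 102.71 in WT stage 2 (101 ± 12.3, SD, n = 3), 90.85, 75.25 and 68.08 in *Med23*-deficient stage 2 (78.1 ± 11.6, n = 3) and 22.72, 33.37 and 26.36 in WT stage 3 (27.5 ± 5.41, n = 3). Every stage 3 library lay below every stage 2 library of either genotype, while the 2 stage 2 groups overlapped.

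From WT stage 2 to stage 3, *Zbtb16* fell by 1.85 on the log2 scale (SE 0.17, limma adjusted p = 0.0122), and the WT stage 2 mean was 3.68 times that of stage 3. It ranked 48 of 20689 genes by p. The call was lost without WT stage 2 replicate 3 (adjusted p = 0.0598) and without WT stage 3 replicate 3 (adjusted p = 0.0678), and kept without WT stage 3 replicate 2 (log2 -1.99, adjusted p = 0.0287). It was also lost under a Ballgown-style linear model, the kind of test the study used (adjusted p = 0.205, over a range of 0.00178 to 0.205 in the 17 alternatives), and with replicate number as a block. In *Med23*-deficient stage 2 cells *Zbtb16* was at -0.37 relative to WT stage 2 (SE 0.14, 95% confidence interval -0.72 to -0.02, unadjusted p = 0.0400, limma adjusted p = 0.483), which did not pass the test. Relative to WT stage 3, the deficient stage 2 cells were higher (log2 1.48, SE 0.17, adjusted p = 0.0212), a comparison that shares its libraries with the other 2. That call was kept without deficient replicate 3 (adjusted p = 0.0497) or WT stage 3 replicate 2 (0.0452), and lost without deficient replicate 1 (0.0707) or 2 (0.0832) and without WT stage 3 replicate 1 (0.0669) or 3 (0.0926). *Zbtb16* in deficient cells thus stood at a level between the WT stages and nearer to WT stage 2.

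**Figure D1:**
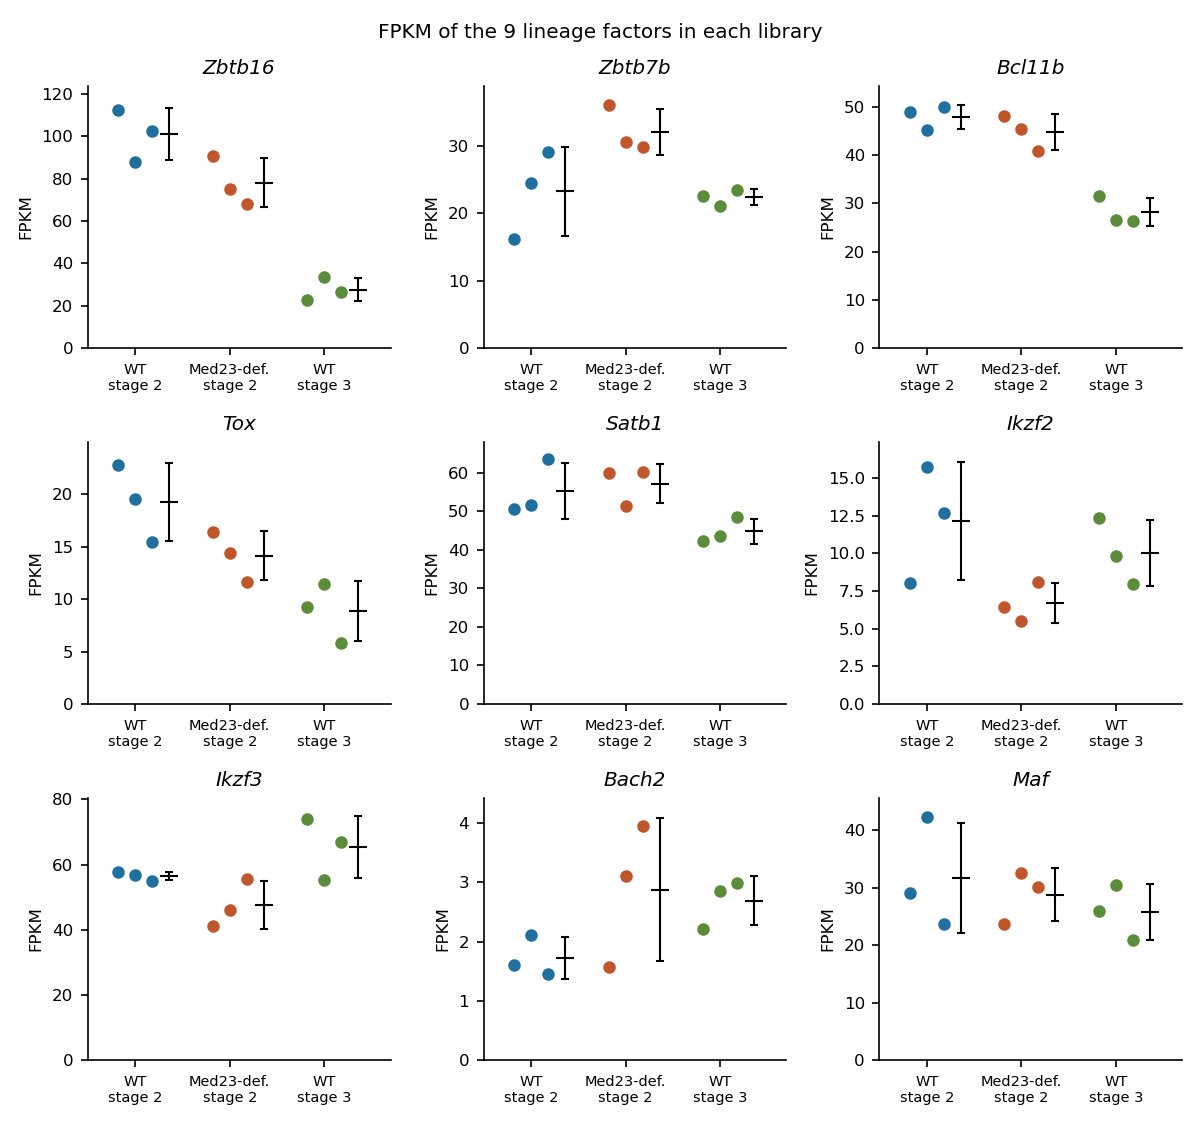
FPKM of each of the 9 genes (vertical axes, from 0) in the 3 libraries of each group, as points, with the group mean and SD beside them in black. *Zbtb16*, *Bcl11b*, *Tox* and *Satb1* have all stage 3 points below all stage 2 points, and *Zbtb7b* has all deficient points above all WT points.

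*Zbtb7b*, on chromosome 3 (89377644 to 89394776, mm10, minus strand; ENSMUSG00000028042), showed a different order of the groups. Its FPKM was 16.13, 24.54 and 29.11 in WT stage 2 (23.3 ± 6.58, n = 3), 22.54, 21.10 and 23.46 in WT stage 3 (22.4 ± 1.19, n = 3) and 36.05, 30.57 and 29.79 in the deficient cells (32.1 ± 3.41, n = 3). Each deficient library lay above all 6 WT libraries, and the WT stages overlapped. The lead over the highest WT library was small, 29.79 against 29.11.

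Neither WT stage nor genotype gave a call for *Zbtb7b*. Stage 3 and stage 2 differed by -0.02 (95% confidence interval -0.54 to 0.50, limma adjusted p = 0.977). Deficient and WT stage 2 cells differed by 0.48 (SE 0.22, interval -0.05 to 1.02, adjusted p = 0.558), and this value ranged from 0.25 to 0.66 over the 17 alternative settings, the lowest of them without WT stage 2 replicate 1. Against WT stage 3 the difference was 0.50 (SE 0.10, unadjusted p = 0.00275, adjusted p = 0.117). Of all 21795 genes above 0 in some library, 1.89% had all deficient libraries above all WT libraries, and *Zbtb7b* was the only one of the 9 members among them, so the members' share is not read as a result.

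The balance of the 2 BTB-zinc finger factors was followed as the ratio of *Zbtb16* to *Zbtb7b* FPKM, which does not depend on library scaling and was chosen after their values were seen. The ratio was 6.97, 3.58 and 3.53 in WT stage 2, 2.52, 2.46 and 2.29 in deficient stage 2 and 1.01, 1.58 and 1.12 in WT stage 3. No pair of groups overlapped, with WT stage 2 highest, deficient cells next and WT stage 3 lowest. On the log2 scale the ratio of deficient cells differed from that of WT stage 2 by -0.88 and that of WT stage 3 by -1.87, given as a description with no test. Without WT stage 2 replicate 1, where the ratio was highest, these differences were -0.56 and -1.55, and without WT stage 3 replicate 2 the WT difference was -2.06.

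**Figure D2:**
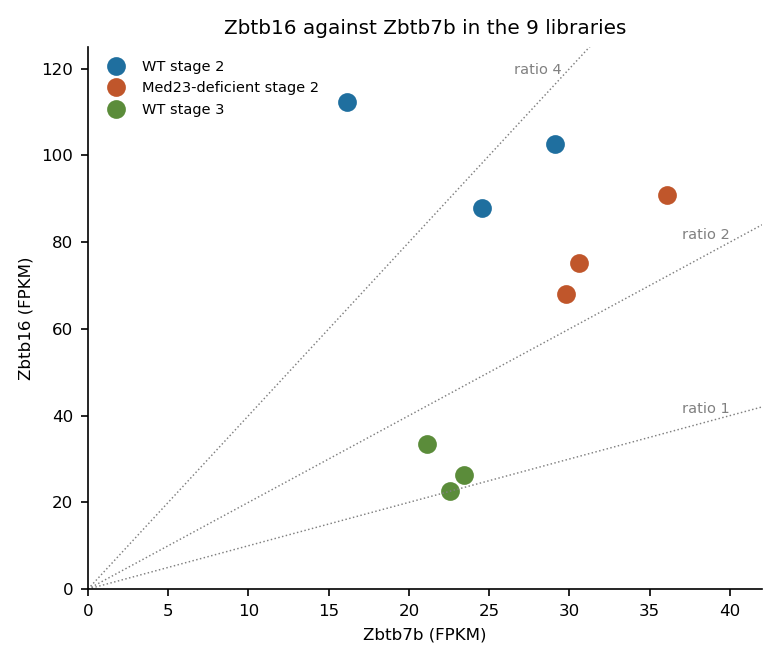
*Zbtb16* FPKM (vertical axis) against *Zbtb7b* FPKM (horizontal axis) in the 9 libraries, 1 point per library and coloured by group, with dotted lines of equal ratio. WT stage 2 points lie at ratios of 3.53 to 6.97, deficient points at 2.29 to 2.52 and WT stage 3 points at 1.01 to 1.58.

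*Bcl11b*, the zinc finger gene that keeps T cell identity, lies on chromosome 12 (107910403 to 108003602, mm10, minus strand; ENSMUSG00000048251). Its FPKM was 48.85, 45.15 and 49.93 in WT stage 2 (48.0 ± 2.51, n = 3), 48.11, 45.38 and 40.86 in deficient stage 2 (44.8 ± 3.66, n = 3) and 31.60, 26.63 and 26.40 in WT stage 3 (28.2 ± 2.94, n = 3). The stage 2 groups overlapped and stage 3 lay below them. It fell by 0.75 on the log2 scale from WT stage 2 to stage 3 (SE 0.10, limma adjusted p = 0.0342), less than a 2-fold change. Leaving out any 1 of the 6 libraries ended this call, with adjusted p from 0.0593 to 0.123, while the log2 value stayed between -0.83 and -0.71. Deficient and WT stage 2 cells differed by -0.10 (95% confidence interval -0.32 to 0.12, adjusted p = 0.731), and deficient stage 2 and WT stage 3 cells by 0.65 (adjusted p = 0.0621).

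*Tox*, an HMG-box factor of CD4 lineage and NKT cell development on chromosome 4 (6686353 to 6991557, mm10, minus strand; ENSMUSG00000041272), had an FPKM of 22.76, 19.59 and 15.42 in WT stage 2, 16.37, 14.36 and 11.68 in deficient stage 2 and 9.23, 11.47 and 5.79 in WT stage 3. The stage 3 libraries were the lowest, although the nearest values, 11.47 and 11.68, were almost equal. Its WT stage 3 to stage 2 difference of -1.07 (SE 0.26, unadjusted p = 0.00623) passed the fold and p threshold but not the adjusted test (limma adjusted p = 0.135). Deficient cells stood at -0.42 relative to WT stage 2 (95% confidence interval -0.87 to 0.03, adjusted p = 0.551).

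*Satb1*, a chromatin organiser of thymocytes on chromosome 17 (51736187 to 51833290, mm10, minus strand; ENSMUSG00000023927), was among the more abundant members in all groups. Its FPKM was 50.51, 51.59 and 63.60 in WT stage 2, 59.84, 51.24 and 60.14 in deficient stage 2 and 42.34, 43.63 and 48.43 in WT stage 3. Stage 3 lay below both stage 2 groups, which overlapped, with a difference of -0.29 from WT stage 2 (SE 0.12, limma adjusted p = 0.365) that did not pass. The span of *Satb1* holds 5 same-strand gene models with mean FPKM of 17.6 to 48.6, and each of these 5 overlapped between WT stage 3 and either stage 2 group, so they did not share its separation. A model on the opposite strand at its start, *Gm6934*, was at 10.92, 6.40 and 13.22 FPKM in deficient cells, 2.63, 3.57 and 7.41 in WT stage 2 and 4.79, 5.62 and 5.12 in WT stage 3 (deficient against WT stage 2, log2 1.06, SE 0.39, adjusted p = 0.460). The counting is not stated to use strand, so reads of overlapping models cannot be told apart.

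*Zbtb16*, *Bcl11b*, *Tox* and *Satb1* were thus 4 of the 9 members in which all stage 3 libraries lay below all 6 stage 2 libraries, a pattern held by 3.11% of the 21795 genes above 0 in some library and by 4.79% of the 11778 with a mean FPKM of at least 1. These 4 were counted after their values were seen.

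The Ikaros family members had other orders of the groups, with no call in any comparison. *Ikzf2*, on chromosome 1 (69531214 to 69687245, mm10, minus strand; ENSMUSG00000025997), had an FPKM of 8.01, 15.73 and 12.71 in WT stage 2, 12.34, 9.80 and 8.0 in WT stage 3 and 6.46, 5.52 and 8.11 in deficient cells. The deficient libraries were the lowest as a group, but their highest value passed the lowest WT values of 8.0 and 8.01. The difference between deficient and WT stage 2 cells was -0.74 (SE 0.26, 95% confidence interval -1.38 to -0.10, unadjusted p = 0.0304, limma adjusted p = 0.437), and that from WT stage 3 was -0.52 (adjusted p = 0.465).

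A pair of same-strand intronic gene models inside *Ikzf2*, singled out after all 15 models overlapping the members were looked at, had the same order. *Gm28112* (chromosome 1, 69660187 to 69662061) was at 1.88, 4.21 and 4.18 FPKM in deficient cells, against 5.59, 8.86 and 7.69 in WT stage 2 and 4.93, 6.00 and 8.0 in WT stage 3. *Gm29112* (chromosome 1, 69595036 to 69598522) was at 0, 0.33 and 0.75 in deficient cells, against 2.11, 2.42 and 1.81 in WT stage 2 and 1.17, 2.08 and 0.80 in WT stage 3. In both models each deficient library lay below all 6 WT libraries, as in 1.65% of all genes above 0, and neither passed the adjusted test against WT stage 2 (log2 -0.95 and -1.23, limma adjusted p = 0.378 and 0.205). Reads of these models and of *Ikzf2* introns come from the same strand and may be shared.

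*Ikzf3*, on chromosome 11 (98464902 to 98546031, mm10, minus strand; ENSMUSG00000018168), was at 57.66, 56.86 and 55.08 FPKM in WT stage 2, 73.97, 55.15 and 66.97 in WT stage 3 and 41.19, 45.91 and 55.66 in deficient cells. It was the only member whose mean was highest in WT stage 3, and each pair of groups overlapped by a single library. Deficient cells stood at -0.25 relative to WT stage 2 (SE 0.12, limma adjusted p = 0.579) and at -0.45 relative to WT stage 3 (SE 0.16, adjusted p = 0.377). The WT stage 3 value that overlapped the other groups, 55.15, was that of replicate 2, which stood apart in *Xist*. Without it WT stage 3 and WT stage 2 differed by 0.31 (limma adjusted p = 0.304), and deficient cells and WT stage 3 by -0.57 (adjusted p = 0.333). Of the other Ikaros genes, also named after their values were seen, *Ikzf1* (Ikaros) was at 41.64 to 54.07 FPKM over the 9 libraries, with the groups overlapping. *Ikzf4* (Eos) was at 0 FPKM in each WT stage 3 library, at 0.73, 0 and 0.71 in WT stage 2 and at 1.87, 1.85 and 2.29 in deficient cells, and passed the test in deficient stage 2 against WT stage 3 (limma adjusted p = 0.0133, and 0.0879 without WT stage 3 replicate 2) but not against WT stage 2 (adjusted p = 0.299).

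*Bach2*, on chromosome 4 (32238804 to 32586108, mm10, plus strand; ENSMUSG00000040270), was the least abundant member, at 1.61, 2.12 and 1.45 FPKM in WT stage 2, 2.22, 2.86 and 2.99 in WT stage 3 and 1.58, 3.11 and 3.95 in deficient cells. WT stage 3 lay above WT stage 2 without overlap, by 0.44 (SE 0.23, limma adjusted p = 0.493), while the deficient libraries spanned both. *Maf*, on chromosome 8 (115682942 to 115707794, mm10, minus strand; ENSMUSG00000055435), was at 29.15, 42.36 and 23.68 in WT stage 2, 25.88, 30.50 and 20.90 in WT stage 3 and 23.72, 32.52 and 30.18 in deficient cells. All 3 groups overlapped for *Maf*, and its log2 differences of -0.27, -0.11 and 0.16 in the 3 comparisons all had confidence intervals that span 0.

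**Figure D3:**
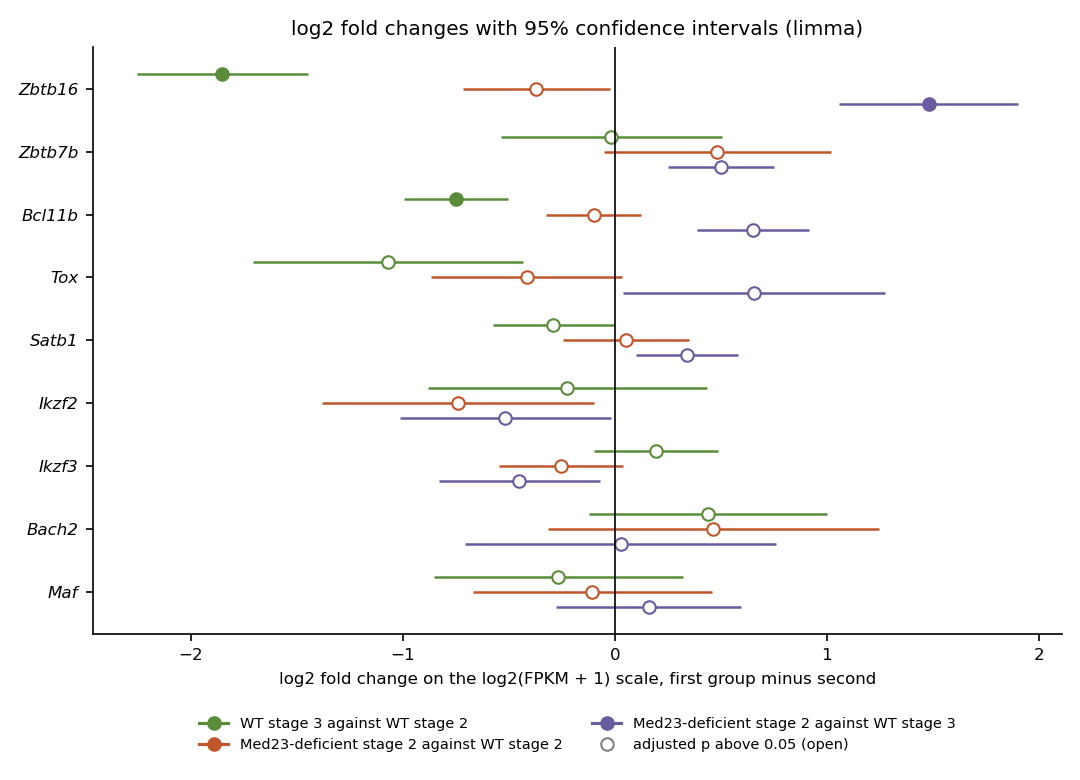
Log2 fold change of each gene on the log2(FPKM + 1) scale (horizontal axis, first group minus second), with its 95% confidence interval from limma, in the 3 comparisons by colour. Filled points have an adjusted p of at most 0.05, which holds for *Zbtb16* at -1.85 and 1.48 and for *Bcl11b* at -0.75.

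Over the 9 members, 2 fell from WT stage 2 to stage 3 by the adjusted test (*Zbtb16* and *Bcl11b*) and none rose, beside 0.914% of the 20689 genes tested that fell and 1.67% called in either direction. By the fold and p threshold 2 were lower (*Zbtb16* and *Tox*), beside 1.9% of all genes, and 4 had an unadjusted p of at most 0.05, beside 13.2%. The groups did not overlap for 5 members, 4 lower and 1 higher, beside 10.4% and 7.36% of all genes. The median log2 fold change of the members was -0.27, against -0.01 over all genes tested.

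When deficient cells were set against WT stage 2, 0 of the 9 members passed the adjusted limma test or the fold and p threshold, beside 0.213% and 2.11% of the 20674 genes tested. At an unadjusted p of at most 0.05 there were 2 (*Zbtb16* and *Ikzf2*), beside 9.58% of genes, the groups did not overlap for 1 (*Zbtb7b*, higher), beside 5.63%, and none passed an adjusted p of 0.05 under any of the 17 alternatives. The members' median was -0.11, against -0.01 over all genes and -0.05 over the 11750 with a mean FPKM of at least 1. In deficient stage 2 against WT stage 3, 1 member was higher by the adjusted test (*Zbtb16*, beside 0.705% of 20846 genes) and by the fold and p threshold (beside 1.39%). In that comparison 7 had an unadjusted p of at most 0.05, beside 10.2% of genes, and the groups did not overlap for 5 members, all higher in the deficient cells, beside 7.48% of genes.

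The members' paralogs and the other genes with a symbol that starts with *Zbtb* were looked at next. The latter list goes by name only, so its counts are not counts of the BTB-zinc finger family. Of 11 listed paralogs tested, 0 passed the adjusted limma test between the WT stages and 1 had an unadjusted p of at most 0.05, and of 13 tested 0 passed between deficient and WT stage 2 cells, where *Ikzf4* and *Tox2* passed the fold and p threshold. *Tox2*, named after its values were seen, was at 1.19, 0.75 and 3.87 FPKM in WT stage 2, 12.11, 6.25 and 2.84 in deficient cells and 0 in each WT stage 3 library (deficient against WT stage 2, log2 1.43, SE 0.58, adjusted p = 0.508). None of the other *Zbtb* genes passed in the WT comparison (0 of 37 tested, 5 at an unadjusted p of at most 0.05) or in the *Med23* comparison (0 of 38, with 0 unadjusted), and their medians were 0.03 and 0.12. The most abundant of these, *Zbtb7a*, had mean FPKM of 13.5 in WT stage 2, 21.2 in WT stage 3 and 15.8 in deficient cells (WT stage 3 against stage 2, log2 0.62, adjusted p = 0.0850).

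Genes of the CD4 and CD8 lineage decision, in which ThPOK acts, were taken as a list. For this and later lists, 1.67% of all genes were called between the WT stages and 13.2% had an unadjusted p of at most 0.05. In the *Med23* comparison these shares were 0.213% and 9.58%. Both take in genes with a mean FPKM below 1. The lists share genes, so some changes are counted more than once. *Gata3*, *Slamf6* and *Icos* of this and the next lists are also iNKT2 markers. Between the WT stages 4 of 13 fell and 1 rose by the adjusted limma test, and 0 to 3 fell and 0 to 1 rose with 1 library left out. Without WT stage 3 replicate 2, *Tcf7*, *Cd4* and *Myb* were called and *Runx3* was not (limma adjusted p = 0.122). Over the 6 fits with 1 library left out, *Tcf7* was called in 4, and *Cd4*, *Myb* and *Runx3* in 1 each. For *Cd4* and *Myb* that was the fit without WT stage 3 replicate 2, and the highest adjusted p values were 0.102 and 0.143. *Tcf7* (TCF-1), a factor of early T cells, was at 243.64, 172.75 and 194.87 FPKM in WT stage 2 and 35.10, 52.60 and 40.28 in WT stage 3, a fall of 2.24 on the log2 scale (SE 0.19, adjusted p = 0.0118). *Myb* fell by 2.16 (adjusted p = 0.0473), and the co-receptor gene *Cd4* fell by 1.26 (SE 0.15, adjusted p = 0.0237). *Runx3*, which promotes CD8 lineage genes and opposes ThPOK, rose from 37.47, 50.10 and 38.78 to 76.09, 75.75 and 79.08 FPKM (log2 0.87, SE 0.12, adjusted p = 0.0399). *Cd8a*, named after its values were seen, stayed at or below 1.64 FPKM in every library.

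In deficient stage 2 cells none of these 13 genes passed the adjusted limma test against WT stage 2, with 6 at an unadjusted p of at most 0.05 and a median of -0.13. *Gata3*, the CD4 lineage and type 2 factor, singled out after its values were seen, was higher without overlap, at 77.18, 69.69 and 60.69 FPKM against 35.81, 38.10 and 42.47 (log2 0.82, SE 0.12, adjusted p = 0.0786). Against WT stage 3, *Gata3*, *Lef1* and *Tcf7* were higher in the deficient cells (log2 1.02, 1.26 and 1.83, limma adjusted p = 0.0175, 0.0273 and 0.0174). Of these only *Tcf7* was called without WT stage 3 replicate 2 (adjusted p = 0.0423). Over the 6 fits with 1 library left out, *Tcf7* was called in 2 (limma adjusted p = 0.0385 to 0.0818), and *Gata3* and *Lef1* in 1 each.

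Genes known to act on PLZF induction, such as EGR factors, E proteins and their Id inhibitors, and SLAM receptors, were the next list. Between the WT stages 2 of 14 fell and 0 rose by the adjusted limma test, beside 0.914% of all genes that fell. An unadjusted p of at most 0.05 was held by 12, beside 13.2% of all genes. The median was -0.65, against -0.01 over all genes and -0.05 over those with a mean FPKM of at least 1. *Id3*, an inhibitor of E proteins, was at 18.93, 14.18 and 23.17 FPKM in WT stage 2 and 1.75, 2.05 and 0.54 in WT stage 3 (a fall of 3.05, SE 0.32, limma adjusted p = 0.0188), and *Slamf6* fell by 2.59 (SE 0.22, adjusted p = 0.0117). Without WT stage 3 replicate 2 neither was called (adjusted p = 0.0554 and 0.0512), and 0 to 2 of the list were with 1 library left out. In the *Med23* comparison 0 of 14 passed the adjusted limma test, 5 had an unadjusted p of at most 0.05, and the median was -0.27. *Egr1* and *Egr2*, the latter an inducer of *Zbtb16*, were named after their values were seen. *Egr1* was at 32.82, 27.04 and 24.87 FPKM in WT stage 2 and 15.68, 14.35 and 8.27 in deficient cells (log2 -1.12, adjusted p = 0.199), past the fold and p threshold only. *Egr2* was at 11.78, 8.63 and 10.36 FPKM in WT stage 2, 8.69, 5.19 and 3.42 in deficient cells and 5.13, 6.54 and 3.66 in WT stage 3, and no comparison of it passed the adjusted test.

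Effector and memory genes linked to the PLZF program made up 7 genes. Between the WT stages *Ccr7* and *Icos* fell and *Il18rap*, an IL-18 receptor chain, rose by 1.03 (limma adjusted p = 0.0412, and 0.132 without WT stage 3 replicate 2). *Icos*, a costimulatory receptor, was at 138.29, 131.71 and 141.62 FPKM in WT stage 2, 92.55, 97.50 and 81.85 in deficient cells and 32.34, 38.07 and 30.25 in WT stage 3, with no overlap between any groups. It fell by 2.01 between the WT stages (SE 0.10, limma adjusted p = 0.00368, called with any 1 library left out), and deficient and WT stage 2 cells differed by -0.60 (SE 0.09, adjusted p = 0.0881). None of the 7 passed the adjusted limma test in the *Med23* comparison, 5 did at an unadjusted p of at most 0.05, and the median was -0.74. *Il18r1*, named after its values were seen, was at 52.83, 83.36 and 91.92 in WT stage 2 and 15.07, 19.36 and 31.93 in deficient cells (log2 -1.76, adjusted p = 0.135).

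*Icos* and *Tcf7* were also, by the root mean square difference of centred log2 values over the 9 libraries among 9661 genes, the genes most like *Zbtb16* (0.16 and 0.18), followed by *Dhrs3* (0.21). The genes most like *Zbtb7b* were *Ankmy2* and *Cytip* (0.12 each) and *Eml5* (0.14). For *Bcl11b* they were *Mpp6* and *Wdr46* (0.08 each) and *Runx1* (0.10), whose mean FPKM was 10.1 in WT stage 2, 9.26 in deficient cells and 6.05 in WT stage 3.

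Since PLZF and ThPOK levels are known to differ between iNKT subsets, the subset markers were followed beside them. In WT stage 3, where *Zbtb16* was low, 6 of 9 iNKT1 markers rose and 5 of 8 iNKT2 and 4 of 10 iNKT17 markers fell by the adjusted limma test. Of all genes 1.67% were called in either direction there. With 1 library left out 0 to 4 iNKT1 markers rose and 1 to 4 iNKT2 and 0 to 4 iNKT17 markers fell, and without WT stage 3 replicate 2 the counts were 1, 2 and 0. The summed FPKM of the iNKT1 markers ran from 226 to 298 in WT stage 2, 239 to 321 in deficient stage 2 and 789 to 865 in WT stage 3. That of the iNKT2 markers ran from 334 to 371, 320 to 407 and 96.5 to 135 in the same order. One of the iNKT1 markers, *Klrb1c*, encodes the NK1.1 antigen used to sort the stages, so its difference between them is not a finding. Their part in the *Zbtb16* and *Bcl11b* results was not tested.

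The iNKT17 markers separated WT stage 2 from the other 2 groups. Their summed FPKM was 40.3 to 43.1 in WT stage 2, 9.30 to 10.1 in deficient cells and 1.84 to 4.89 in WT stage 3, over 10 listed genes. *Blk* was at 6.76, 6.12 and 4.53 FPKM in WT stage 2, listed at 0 in all deficient libraries and at 0.09, 0.22 and 0 in WT stage 3. *Sdc1* (CD138) was at 5.94, 4.49 and 5.84 in WT stage 2 and at 0, 0 and 0.03 in deficient cells. In the *Med23* comparison *Blk* and *Sdc1* were the 2 of 10 that passed the adjusted limma test (adjusted p = 0.0304 for each), and neither was called with any 1 library left out (adjusted p = 0.0941 to 0.136 and 0.0754 to 0.136), with 8 of 10 at an unadjusted p of at most 0.05 and a median of -1.95, while *Rora* overlapped between the groups. The iNKT17 sum was lower in deficient cells and in WT stage 3 than in WT stage 2. *Rora* made up most of it in deficient cells, at 8.99, 9.51 and 7.82 FPKM. It was at 7.54, 11.43 and 8.27 in WT stage 2 and at 2.55, 0.41 and 2.45 in WT stage 3. *Zbtb7b* was at 32.1 FPKM in deficient cells and 22.4 in WT stage 3. The part of the iNKT17 markers in the *Zbtb7b*, *Zbtb16* and *Maf* values was not tested.

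**Figure D4:**
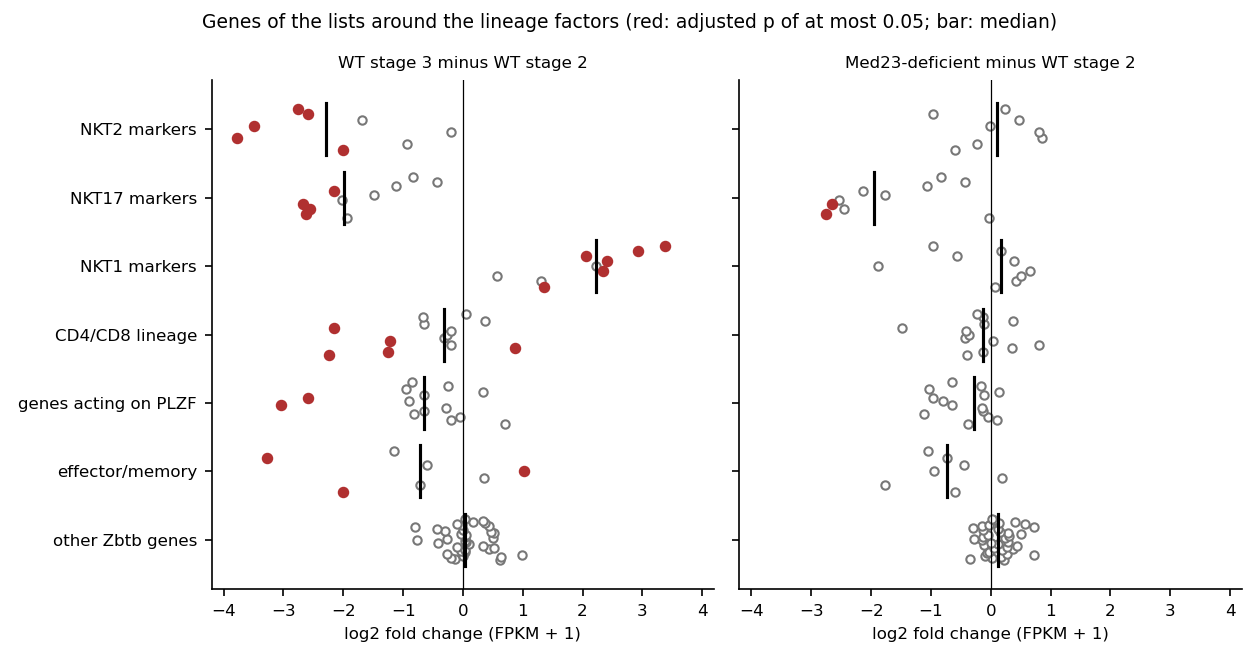
Log2 fold change of each gene (points) of 7 gene lists, for WT stage 3 minus WT stage 2 (left) and *Med23*-deficient minus WT stage 2 (right), on the log2(FPKM + 1) scale, with the list median as a bar and genes at an adjusted p of at most 0.05 in red. In the left panel 6 red iNKT1 markers lie to the right and 5 red iNKT2 and 4 red iNKT17 markers to the left, and in the right panel the only red points are *Blk* and *Sdc1* of the iNKT17 list.

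Markers of other cell types were read in the same way. DP thymocyte markers summed to 1.79 to 5.05 FPKM over all libraries with none called, B cell markers to at most 1.0, and the only erythroid marker analysed to at most 0.75. Myeloid markers summed to 8.33 to 20.7, most of it *Cst3*, with 0 of 5 called. Regulatory T cell markers summed to 1.10 to 3.10 in WT stage 2, 0.65 to 1.13 in WT stage 3 and 3.40 to 6.62 in deficient cells, where *Foxp3* was listed at 0. *Il2ra* alone made up almost all of the sum in deficient cells (3.66, 3.40 and 6.57 FPKM, limma adjusted p = 0.206 against WT stage 2), and *Ctla4* was at 0, 0 and 0.05 there against 0.15, 0.50 and 1.19 in WT stage 2. Gamma T cell receptor transcripts set the deficient libraries apart. The 7 genes listed as gamma-delta T cell markers summed to 427 to 489 in WT stage 2, 396 to 488 in WT stage 3 and 10.1 to 10.8 in deficient cells. By the adjusted limma test 4 of 7 were lower against WT stage 2 (1 to 4 with 1 library left out), all genes of the gamma chain. *Trdc*, the constant gene of the delta chain, was at or below 0.38 in all 9 libraries. *Sox13* overlapped between the stage 2 groups, at 4.05, 5.07 and 1.95 in WT and 4.32, 2.69 and 2.10 in deficient cells. The WT sum is thus one of gamma chain transcripts and not a measure of gamma-delta T cells. The part of these differences in the *Zbtb16* and *Zbtb7b* values of the deficient cells was not tested.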

How the data were processed

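RNA of thymic iNKT cells was sequenced in 9 libraries, 3 per group, prepared with a low-input stranded kit for total RNA. Per the study's methods and the submitters' processing notes, the authors trimmed reads with Trimmomatic 0.36, aligned them to mm10 with HISAT2, used reads that mapped to at most 2 places and quantified GENCODE vM12 genes with StringTie. The authors deposited FPKM for 21883 genes, rounded to 2 decimals, with no pooling of replicates; the strand setting is not given in the sources used here. Low values were not multiples of a single read, so the read depth behind a value is unknown.

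For this report, log2(FPKM + 1) was tested with limma 3.58.1 (R 4.3.3, lmFit and eBayes with a trend), pairwise over 6 libraries and genes above 0 in at least 1 of them. Differences were called at an adjusted p (Benjamini-Hochberg) no greater than 0.05, or at a fold of at least 2 and unadjusted p of at most 0.05. On simulated data with 200 genes changed, the adjusted test recovered 3.5% (WT stages, 20689 genes), 10% (*Med23* comparison, 20674) and 13% (deficient stage 2 against WT stage 3, 20846) where the true log2 change was 1, and 71%, 83% and 76% where it was 2. The changed genes were drawn from those with a mean log2(FPKM + 1) above 2, with independent normal noise at each gene's own residual spread. These shares hold for that setting and are not the power of the real comparisons. Figures were made with matplotlib 3.10.9. The third comparison (deficient stage 2 against WT stage 3) shares libraries with the other 2.

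The members and gene lists were chosen with earlier results of these data known. By rule, the 9 members were always named, with up to 3 called genes of a list per direction and comparison at a mean FPKM of at least 1, marker genes, and the 3 genes most like *Zbtb16*, *Zbtb7b* and *Bcl11b*. Genes outside the rule are said to be named or singled out after their values were seen. Alternatives were pseudocounts of 0.1 and 0.01, a mean FPKM of at least 1, TPM with and without *Gm23935*, upper-quartile and quantile scaling, no trend, all 9 libraries, a Ballgown-style model, the replicate number as a block and each library left out, with the ratio and the gene lists under a left-out library added after seeing the data.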

Additional observations from a re-analysis of the deposited data

How the results depend on the processing

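Over 459 pairs of a member's log2 fold change and an alternative setting, 422 kept direction and side of the adjusted threshold, 19 lost a call, 3 gained one and 15 changed sign, none of the 15 past the threshold. *Zbtb16* kept its direction in all 17 alternatives of the WT comparison (-1.99 to -1.73, adjusted p = 0.00178 to 0.205, called in 13) and of the deficient stage 2 against WT stage 3 comparison (1.36 to 1.62, called in 11). *Bcl11b* stayed between -0.85 and -0.66 in the WT comparison and was called in 8 of 17.

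Of the 9 members, the 2 called in the WT comparison became 1 on the TPM scale without *Gm23935*, and 0 under the Ballgown-style model, and 0 to 1 with 1 library left out. The 2 past the fold and p threshold became 1 with upper-quartile scaling and 1 under the Ballgown-style model, and 1 to 2 with 1 library left out. The 1 member called in deficient stage 2 against WT stage 3 became 2 with a mean FPKM of at least 1, with upper-quartile scaling or with all 9 libraries, 0 under the Ballgown-style model, and 0 to 1 with 1 library left out. The causes were not tested.

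Signs changed for *Zbtb7b* in the WT comparison (0.067 with upper-quartile scaling, 0.032 with quantile normalization, 0.52 under the Ballgown-style model, and 0.04, 0.16 and 0.02 without WT stage 2 replicate 2, WT stage 2 replicate 3 or WT stage 3 replicate 2, in a range from -0.25 to 0.16 with 1 library left out) and for *Ikzf2* there (0.29, Ballgown-style). In the *Med23* comparison they changed for *Bcl11b* (0.0044, upper quartile), *Satb1* (-0.078 on the TPM scale, -0.0091 without WT stage 2 replicate 1, up to 0.15 with others left out) and *Maf* (0.12 without WT stage 2 replicate 2, 0.02 without deficient replicate 1, down to -0.29 with others left out). In deficient stage 2 against WT stage 3 they changed for *Bach2* (-0.04, -0.17 and -0.07 without deficient replicate 2, deficient replicate 3 or WT stage 3 replicate 1, up to 0.30 with others left out).

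When replicate number entered the fit as a block (replicate block), 0 members passed the adjusted test in the WT comparison (*Zbtb16* adjusted p = 0.0968), 0 in the *Med23* comparison and 0 in deficient stage 2 against WT stage 3. Deviations of same-numbered libraries correlated at 0.085, 0.031 and 0.161, at 0.035, 0.004 and 0.144, and at 0.047, 0.042 and 0.272 in the 3 comparisons. Those of other-numbered libraries ran from -0.117 to 0.031, from -0.087 to 0.05 and from -0.175 to 0.124. Replicate 3 with replicate 3 gave the highest value in each comparison. The labels do not say that the numbers pair the libraries, so the main fit had no block. Whether the libraries numbered 3 share an effect was not tested.

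Counts over all genes moved more. The 346 genes called in the WT comparison became 224 on the TPM scale, 626 with all 9 libraries, 19 with the block, 5 under the Ballgown-style model and 22 to 137 with 1 library left out, and the 745 past fold and p became 1423 and 1452 with pseudocounts of 0.1 and 0.01. The 44 called in the *Med23* comparison became 77 with a pseudocount of 0.01, 143 with a mean FPKM of at least 1, 27 on the TPM scale without *Gm23935*, 176 with all 9 libraries, 0 with the block, 1 under the Ballgown-style model and 1 to 8 with 1 library left out, and the 437 past fold and p became 971 and 974. In deficient stage 2 against WT stage 3, 278 became 42 with the block, 18 under the Ballgown-style model and 72 to 174 with 1 library left out, and 597 past fold and p became 1221 and 1211. Among genes averaging an FPKM of 1 or more, the median log2 difference from WT stage 2 was -0.05 for WT stage 3 and for deficient cells, -0.14 and -0.16 on the TPM scale, 0.022 and 0.038 with upper-quartile scaling, -0.0074 and 0.0079 with quantile normalization and -0.016 and 0.0097 under the Ballgown-style model. With FPKM alone, depth could not be weighed.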
